A study of Homo sapiens with 6 samples.

Results

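Glycolysis and hypoxia-induced genes were described as 37 genes, chosen by symbol. They comprised 17 glycolytic enzymes, from hexokinase to lactate dehydrogenase, and 20 other genes. Of those 20, 5 were glucose and lactate transporters or regulators of glycolytic flux, and 15 were oxygen-sensing factors or other genes known to be induced in low oxygen. All 37 had a row among the 57820 gene rows. All 37 also passed the filter on low values, which kept 14763 genes whose values, taken back from the log2 scale, averaged 10 or more over the 6 libraries. The weakest of them was ANKRD37, with a mean of 15.9 on that scale.

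Messenger RNA was sequenced from hTert-HME1, a human breast epithelial cell line kept dividing by added telomerase, after siRNA transfection and recovery. At passage 6, 2 libraries (A and B) came from cells with BRCA2 siRNA grown without EGF, a growth factor that signals through EGFR. BRCA2 is a gene of homologous recombination repair. At passage 4, 1 library came from BRCA2 siRNA with EGF. Control siRNA with EGF gave 2 libraries at passage 6 (A and B) and 1 at passage 4. All groups shared the cell line, the transfection reagent and the growth medium apart from EGF, and the labels name 1 siRNA per target. Control siRNA without EGF, a group that the series text also mentions, was not analysed here. The effects of the BRCA2 siRNA and of EGF withdrawal therefore cannot be told apart at passage 6.

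The values are normalised log2 values, and the depth behind them is unknown. BRCA2 itself had values of 11.15 and 10.89 in the libraries without EGF, against 11.25 and 11.24 in the passage 6 controls, a log2 difference of -0.23 (limma adjusted p = 0.231). At passage 4 it stood at 10.88 in the library labelled BRCA2 siRNA and at 10.19 in the control, the lowest value of all 6 libraries. The target thus goes against the labels of the passage 4 libraries, and every direction drawn from either of them carries that doubt. Passage 6 controls A and B were very close to each other, with an SD of their differences of 0.119 over all tested genes, where the pair without EGF had 0.308. Against these controls, A and B in turn, the passage 4 library labelled BRCA2 siRNA had an SD of 0.290 and 0.321, and the library labelled passage 4 control had 0.485 and 0.509. The labels call A and B biological replicates without saying whether they were separate cultures, so the p-values rest on a spread among these libraries that could be technical. In bulk RNA, fewer cells of a type and less RNA per cell cannot be told apart.

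Glycolysis splits glucose into pyruvate in the cytosol, and lactate dehydrogenase then turns pyruvate into lactate, which monocarboxylate transporters carry out of the cell. In low oxygen the prolyl hydroxylases EGLN1 and EGLN3 no longer mark HIF-1α for destruction, and the factor, paired with ARNT, binds a short core motif in promoters and enhancers of target genes. Its known targets include most glycolytic enzymes, the glucose transporter SLC2A1, the pyruvate dehydrogenase kinase PDK1, the mitophagy receptor BNIP3 and secreted factors such as VEGFA and ADM. Several of the same enzymes are also known targets of MYC and of growth factor signalling.

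The core motif of the HIF site was searched in promoter sequence because it is the feature by which these genes are usually grouped. The searched letters were ACGTG, and also GCGTG, on both strands, in the 250 bases before the RefSeq start of each gene (assembly GRCh38.p14, a later build than that of the data). Each gene has 1 start in that table. In the sequences below, capitals mark every match, with overlapping matches joined, and a match on the other strand appears as its reverse complement. HK2 and PDK1 fell in the passage 6 comparison, ADM rose in it, and LDHA and BNIP3 are a main lactate dehydrogenase and a HIF target whose values are followed below.
HK2, chr2:74833877-74834126 (plus strand): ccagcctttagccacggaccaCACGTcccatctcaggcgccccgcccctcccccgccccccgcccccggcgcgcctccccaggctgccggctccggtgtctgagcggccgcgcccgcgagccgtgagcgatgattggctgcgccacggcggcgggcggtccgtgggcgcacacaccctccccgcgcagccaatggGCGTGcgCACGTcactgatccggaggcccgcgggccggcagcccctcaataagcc
LDHA, chr11:18394313-18394562 (plus strand): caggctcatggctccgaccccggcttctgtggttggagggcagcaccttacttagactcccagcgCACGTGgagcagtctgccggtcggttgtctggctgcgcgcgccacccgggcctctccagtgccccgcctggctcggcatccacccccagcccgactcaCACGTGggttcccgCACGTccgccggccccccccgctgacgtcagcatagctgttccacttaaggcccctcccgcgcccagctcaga
PDK1, chr2:172555123-172555372 (plus strand): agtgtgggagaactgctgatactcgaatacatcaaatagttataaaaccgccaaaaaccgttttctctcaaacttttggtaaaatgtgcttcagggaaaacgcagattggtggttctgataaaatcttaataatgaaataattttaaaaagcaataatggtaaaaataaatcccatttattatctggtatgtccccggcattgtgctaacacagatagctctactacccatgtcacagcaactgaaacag
ADM, chr11:10304823-10305072 (plus strand): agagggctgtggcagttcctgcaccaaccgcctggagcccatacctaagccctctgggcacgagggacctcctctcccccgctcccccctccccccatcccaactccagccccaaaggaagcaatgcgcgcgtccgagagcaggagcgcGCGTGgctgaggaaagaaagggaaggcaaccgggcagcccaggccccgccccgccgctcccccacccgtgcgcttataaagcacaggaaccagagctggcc
BNIP3, chr10:131981924-131982173 (minus strand): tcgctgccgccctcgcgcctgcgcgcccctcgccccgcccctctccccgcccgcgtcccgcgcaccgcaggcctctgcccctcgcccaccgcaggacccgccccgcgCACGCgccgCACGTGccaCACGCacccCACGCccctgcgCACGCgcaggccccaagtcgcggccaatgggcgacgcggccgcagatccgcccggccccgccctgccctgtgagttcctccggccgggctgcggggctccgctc

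The promoters of HK2 and LDHA held 3 marked runs each and that of BNIP3 held 5. ADM had 1 match, of the GCGTG form, and PDK1 had 0 in this window, as had PFKP and P4HA2. Among the 17 enzymes, 8 promoters (47.1%) held ACGTG, and among the 17 other members with a promoter in the table, 6 (35.3%) did. Of the promoters of 10456 tested genes, 23.3% held it. For GCGTG the order was the other way, with 12 of 34 member promoters (35.3%) against 45.2% of those of tested genes. With either form counted, 10 of the 17 enzyme promoters (58.8%) and 21 of 34 member promoters (61.8%) held a match. That is close to the 57% of promoters of tested genes. VEGFA, NDRG1 and BNIP3L were not matched. A match is a description of letters, not of binding.

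At passage 6 the glycolytic enzymes were lower in BRCA2 siRNA cells without EGF than in control siRNA cells with EGF. All 17 lay lower in both BRCA2 siRNA libraries without EGF than in both controls with EGF, where 35.7% of all tested genes did so. Their median log2 difference was -0.51, against -0.02 over all tested genes. The test across all genes called 2 of the 17, HK2 and PFKP, and both fell. In all, 5 of the 37 genes were called (13.5%), beside 6.44% of all tested genes. HK2, PFKP and PDK1 fell, as did 2.88% of tested genes, and ADM and P4HA2 rose, as did 3.56%. These calls depended on how controls A and B entered the fit, on the filter for low values and on whether passage was part of the groups. In limma 0 of 37 passed when they were averaged into 1 library (8 had an unadjusted p below 0.05), when control A or control B was left out (9 and 10), when no filter on low values was used (20) or when passage was left out of the groups (14). Over all tested genes, 6281 of 31834 had an unadjusted limma p below 0.05 with no filter, and 2534 of 14763 with passage left out. Without library A or library B of the pair lacking EGF, where the spread comes from the controls alone, the enzyme median was -0.61 and -0.36.

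**Figure D1:**
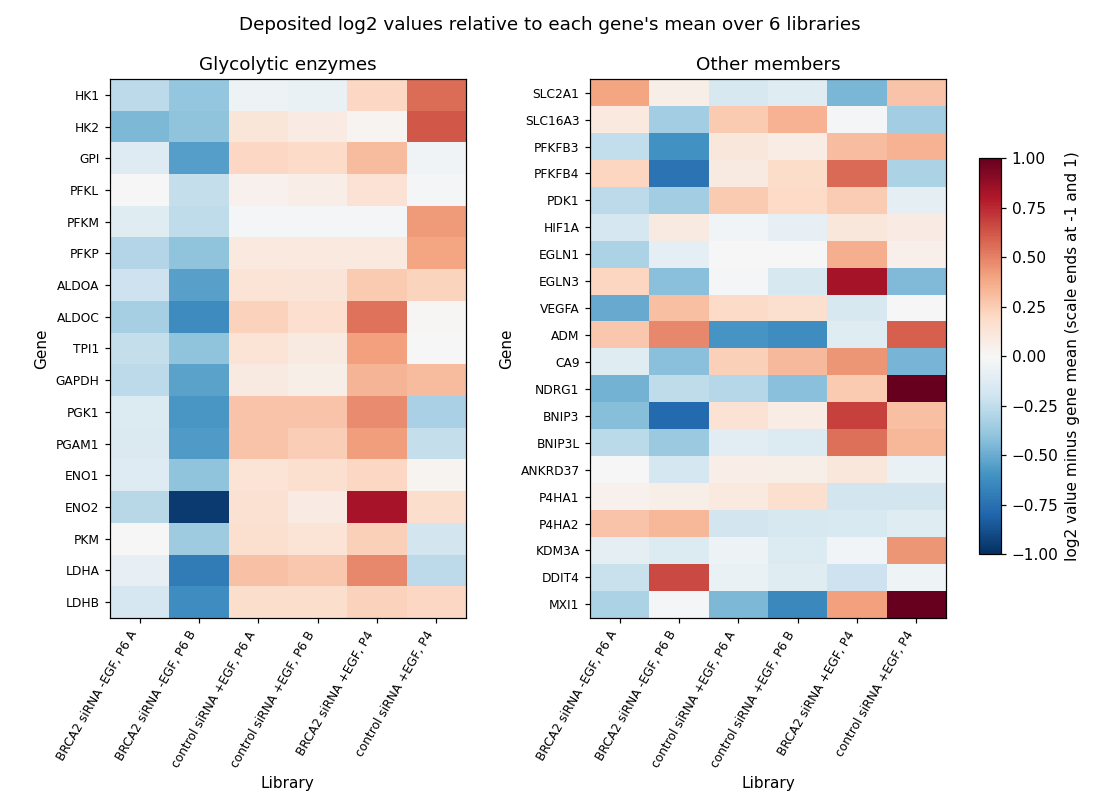
Heat map of all 37 genes (rows) in the 6 libraries (columns), with enzymes on the left and the others on the right. Colour gives the log2 value minus the gene's mean over the libraries and ends at -1 and 1. All enzymes are lower in both libraries without EGF than in both passage 6 controls, while the others are mixed.

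The first step of glycolysis is the phosphorylation of glucose by hexokinases. HK2, the hexokinase best known as inducible by growth factors and hypoxia, had log2 values of 11.72 and 11.77 in BRCA2 siRNA cells without EGF, against 12.29 and 12.25 in control cells with EGF. These pairs did not overlap, and HK2 fell by 0.52 ± 0.07 on the log2 scale (SE, limma adjusted p = 0.0285), which is 0.695-fold. HK1, the widely expressed hexokinase, had 13.85 and 13.72 without EGF and 14.06 and 14.04 in controls, a difference of -0.27 ± 0.08 (adjusted p = 0.105). Per kilobase of exon, HK1 made up 81.2% to 84.7% of the sum of both over the 6 libraries.

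Glucose-6-phosphate isomerase (GPI) and the phosphofructokinases follow. GPI had 11.68 and 11.26 without EGF against 12.02 and 12.00 in controls, and its difference of -0.54 did not pass (adjusted p = 0.097). Phosphofructokinase catalyses the first committed step and has liver, muscle and platelet subunits. The platelet-type subunit PFKP had 11.20 and 11.09 without EGF, against 11.59 in both controls, and fell by 0.45 ± 0.08 (adjusted p = 0.0442). The liver and muscle subunits, PFKL and PFKM, differed by -0.17 each, with adjusted p of 0.309 and 0.222. PFKP accounted for 31.4% and 32.8% of phosphofructokinase expression per kilobase without EGF and for 36.5% and 36.3% in controls.

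Below that step, the aldolases cleave the sugar, triosephosphate isomerase (TPI1) interconverts the pieces, and GAPDH, PGK1, PGAM1, enolase and pyruvate kinase (PKM) lead to pyruvate. ALDOC, the minor aldolase in these cells, had 8.74 and 8.44 without EGF against 9.30 and 9.24 in controls. Its difference of -0.68 ± 0.13 lay just outside the threshold (adjusted p = 0.0509). PGK1, which makes the first ATP of the lower pathway, had 13.09 and 12.64 without EGF against 13.51 in both controls, with a difference of -0.65 ± 0.16 (adjusted p = 0.0785). ENO2, the neuronal-type enolase, had 8.97 and 8.29 without EGF against 9.40 and 9.33 in controls, the largest difference among the enzymes at -0.73 ± 0.23, and did not pass (adjusted p = 0.117). The remaining enzymes of this stretch, ALDOA, TPI1, GAPDH, PGAM1, ENO1 and PKM, had differences between -0.62 for PGAM1 and -0.32 for PKM, with adjusted p between 0.0567 and 0.188. Several of these enzymes have processed pseudogenes with nearly the same sequence, GAPDH among them, and how the counting treated such reads is not given in the sources used here.

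Lactate dehydrogenase closes the pathway. LDHA, the subunit that favours lactate formation, had 15.92 and 15.30 without EGF, against 16.29 and 16.27 in controls. Both values without EGF lay below both controls, but they stood 0.62 apart, and the difference of -0.67 ± 0.21 did not pass (adjusted p = 0.113). LDHB, the subunit of oxidative tissues, had 13.74 and 13.29 without EGF against 14.09 in both controls, with a difference of -0.58 (adjusted p = 0.0922). The log2 ratio of LDHA to LDHB was 2.18 and 2.01 without EGF and 2.20 and 2.18 in controls, so that A without EGF stood at the level of the controls and B below them.

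The pair without EGF did not show the same depth of shift. Library A had a median enzyme level 0.36 log2 units below the control mean, and library B one 0.61 below it. Of the 17 enzymes, 16 were lower in B than in A, with a median of B minus A of -0.31, while over all tested genes that median was 0. HK2 was the exception and PFKP differed little between them, by 0.10. With 2 libraries in the group, a wider gap between them also means a wider standard error, and HK2 and PFKP, which passed, had the smallest gaps between A and B among the 17.

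**Figure D2:**
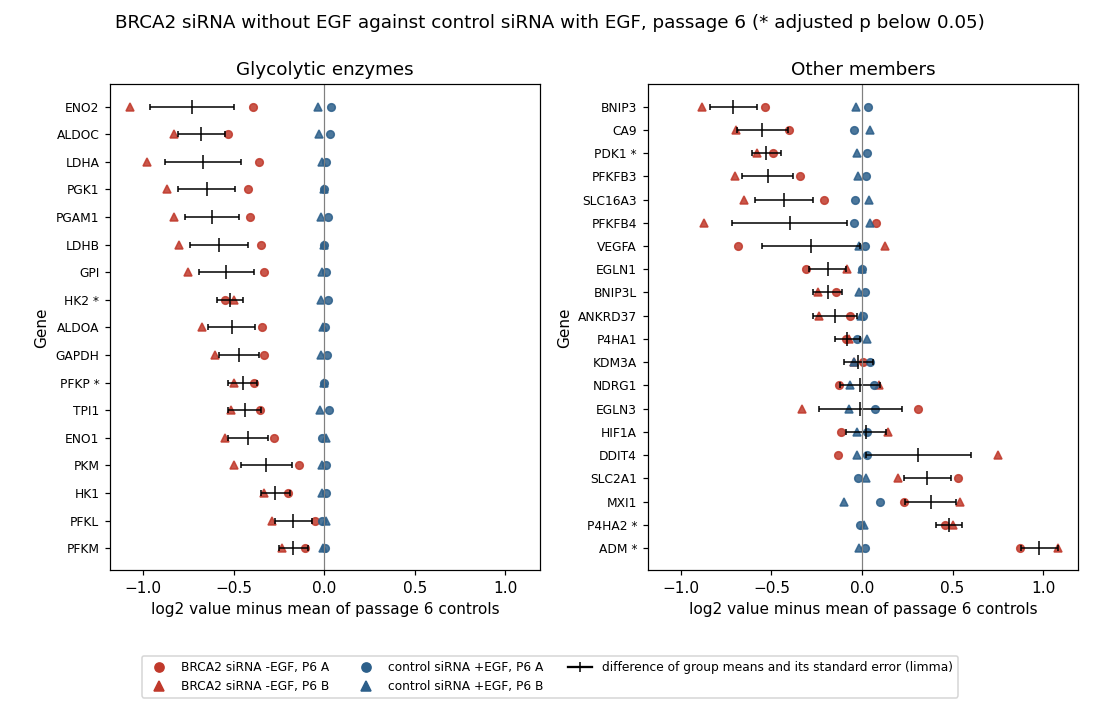
Log2 value minus the mean of the passage 6 controls (x axis) for each gene (rows), with both libraries of BRCA2 siRNA without EGF in red and both controls in blue. The black bar is the difference of group means with its standard error from limma, and an asterisk marks an adjusted p below 0.05. Every red enzyme point lies left of the blue ones, and the triangles of library B lie left of the circles of A for all enzymes but HK2.

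Among transporters and regulators of flux, 1 of 5 passed, beside 6.44% of all tested genes, which is too few genes to describe the class. PDK1, the kinase that shuts pyruvate dehydrogenase and so keeps pyruvate out of the citric acid cycle, had 9.54 and 9.45 without EGF, both below both controls, of which A had 10.06 and the pair averaged 10.03 ± 0.04 (SD, n = 2). It fell by 0.53 ± 0.08 (limma adjusted p = 0.0337), to 0.692-fold. SLC2A1, the basal glucose transporter GLUT1, had 12.47 and 12.14 without EGF against 11.92 and 11.96 in controls. Both values without EGF were higher, and the difference of 0.36 ± 0.13 did not pass (adjusted p = 0.133). SLC16A3, the lactate exporter MCT4, had 11.23 and 10.79 without EGF against 11.40 and 11.48 in controls (difference -0.43, adjusted p = 0.149). PFKFB3 and PFKFB4 make fructose 2,6-bisphosphate, an activator of phosphofructokinase. PFKFB3 differed by -0.52 (adjusted p = 0.0907). PFKFB4 had 8.46 and 7.51 without EGF against 8.34 and 8.43 in controls, so its groups overlapped.

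The oxygen-sensing factors showed no call. HIF1A, the oxygen-labile subunit, had 14.07 and 14.33 without EGF and 14.21 and 14.16 in controls, with overlapping groups and a difference of 0.02 ± 0.11 (adjusted p = 0.933). Its transcript says nothing of its protein, which is where oxygen acts. EGLN1, the main HIF prolyl hydroxylase, had 10.88 and 11.11 without EGF against 11.19 in both controls (difference -0.19, adjusted p = 0.266). EGLN3, a hydroxylase that is itself a HIF target, had 8.49 and 7.85 without EGF against 8.25 and 8.11 in controls, with overlap.

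The hypoxia-induced genes outside glycolysis did not share one direction. Of all 20 genes that are not enzymes, 9 lay lower and 4 higher in both libraries without EGF than in both controls, and 7 overlapped, with a median difference of -0.12. Over all tested genes, 35.7% lay lower and 29.2% higher without overlap. Without the transporters and regulators of flux, the 15 remaining genes had 5 positive and 10 negative differences. Their median was -0.02, the same as over all tested genes. ADM, the secreted vasodilator peptide adrenomedullin, had 10.91 and 11.12 without EGF against 10.05 and 10.02 in controls. It rose by 0.98 ± 0.10 (limma adjusted p = 0.0163), which is 1.98-fold. P4HA2, a catalytic subunit of collagen prolyl 4-hydroxylase, had 12.63 and 12.67 without EGF against 12.16 and 12.18 in controls, and rose by 0.48 ± 0.07 (adjusted p = 0.0326), or 1.4-fold. Its paralogue P4HA1 had 12.91 and 12.93 without EGF against 12.97 and 13.03 in controls, with a difference of -0.08 (adjusted p = 0.481). By length-corrected values, P4HA2 made up 39.4% and 39.6% of both subunits without EGF and 30.9% and 30.4% in controls.

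BNIP3, a receptor that targets mitochondria for degradation, had 10.93 and 10.58 without EGF against 11.50 and 11.43 in controls. The groups did not overlap, and the difference of -0.71 ± 0.13 just missed the threshold (adjusted p = 0.0525). BNIP3L, its relative NIX, differed by -0.19 (adjusted p = 0.177). CA9, the surface carbonic anhydrase widely used as a hypoxia marker, had 7.23 and 6.94 without EGF against 7.59 and 7.68 in controls, a difference of -0.55 (adjusted p = 0.0771). VEGFA, the angiogenic factor, had 11.88 and 12.69 without EGF against 12.58 and 12.55 in controls, so that A lay below both controls and B above them. DDIT4, an inhibitor of mTORC1 also known as REDD1, had 11.34 and 12.22 without EGF against 11.50 and 11.44 in controls, with the same overlap.

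The remaining members without a call were NDRG1, a stress-responsive cytoplasmic protein, MXI1, a MYC antagonist, the histone demethylase KDM3A and ANKRD37, an ankyrin-repeat protein. MXI1 had 9.36 and 9.67 without EGF against 9.23 and 9.03 in controls, without overlap (difference 0.38, adjusted p = 0.14). NDRG1 and KDM3A differed by -0.01 and -0.02, and both groups overlapped. ANKRD37 differed by -0.15 at the lowest level of the set.

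**Figure D3:**
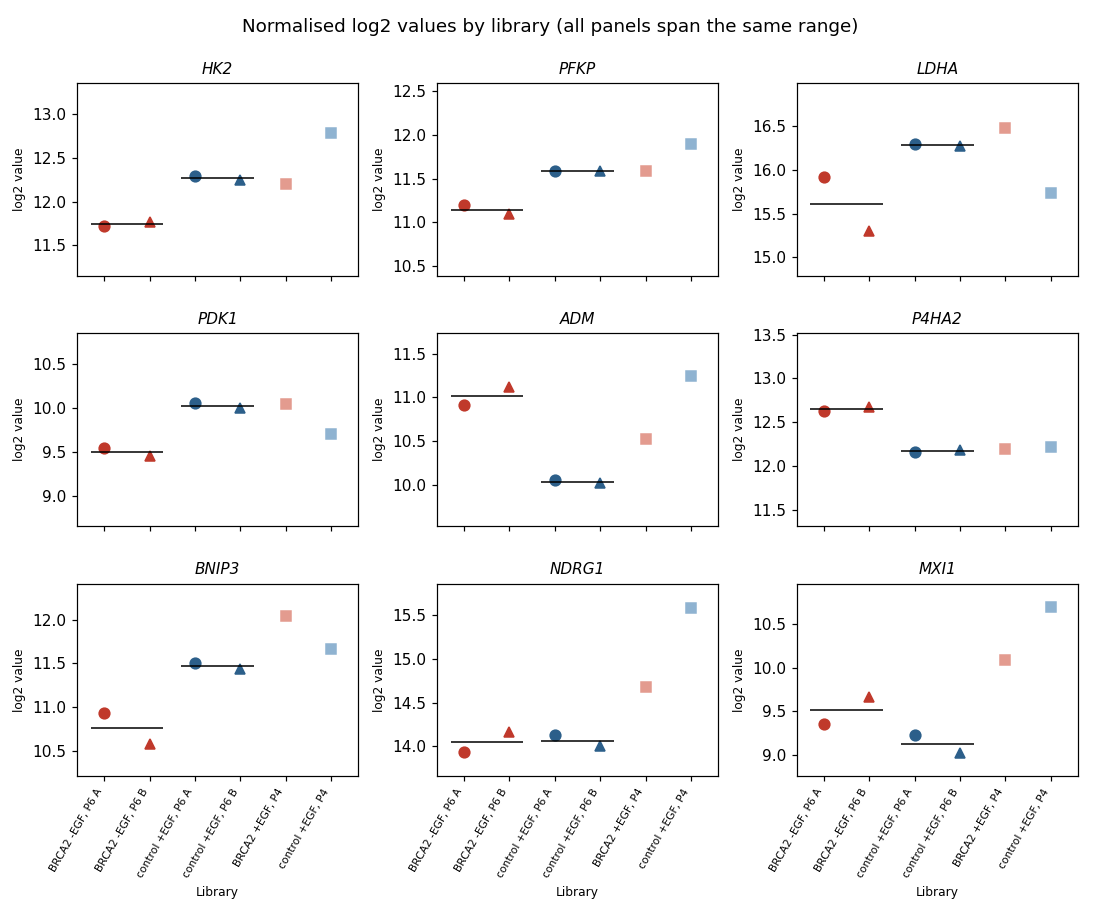
Normalised log2 values (y axis) of 9 genes in each library (x axis), with the group mean of each passage 6 pair as a line. HK2, PFKP, LDHA, PDK1 and BNIP3 are lower, and ADM and P4HA2 higher, in both libraries without EGF (red) than in both passage 6 controls (blue), while NDRG1 and MXI1 are highest in the passage 4 control.

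Other genes of these pathways were taken from lists. Of 31 tested hypoxia targets that are not members, 3 rose and 3 fell in the passage 6 comparison, beside 3.56% and 2.88% of all tested genes. Their median difference was -0.27, against -0.02 over all tested genes. Those that fell were STC1, a secreted glycoprotein (-1.76, limma adjusted p = 0.0163), SLC2A3, the glucose transporter GLUT3 (-1.16, adjusted p = 0.011), and the repressor BHLHE40 (-0.93, adjusted p = 0.0204). CITED2, a protein that restrains HIF transcription, rose by 0.73 (adjusted p = 0.0453), ZNF395 rose by 0.65 (adjusted p = 0.0322), and LOX, a collagen cross-linking oxidase, rose by 0.61 (adjusted p = 0.0211).

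Of 6 tested genes among other glycolytic isoforms and regulators, 2 fell, BPGM (-0.50, adjusted p = 0.0368), which makes 2,3-bisphosphoglycerate, and TIGAR (-0.44, adjusted p = 0.0453), a fructose bisphosphatase. Of 16 genes of pyruvate and lactate fate 1 was called (6.25%) and of 14 genes of the oxygen-sensing machinery also 1 (7.14%), both near the 6.44% of all tested genes. They were DLAT, the E2 subunit of pyruvate dehydrogenase (-0.49, adjusted p = 0.0322), and ELOC, a subunit of the VHL ubiquitin ligase (-0.39, adjusted p = 0.0479), and both fell. In limma 0 of 7 pentose phosphate genes and 0 of 9 genes of the MYC and MondoA network passed, where 3 and 2 had an unadjusted p below 0.05. MYC itself differed by -0.11 (adjusted p = 0.518).

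Cell type markers moved in the same comparison, in which 3.56% of all tested genes rose and 2.88% fell. Of 10 tested mammary epithelial markers, 5 rose (KRT5, KRT14, KRT17, CDH1 and COL17A1) and 1, KRT18, fell, and the sum of 2 raised to the values of the list was 637767 and 572406 without EGF against 399859 and 390664 in controls. KRT19 and EPCAM, also on that list, did not pass the filter on low values (means of 2.1 and 0.93 off the log2 scale). Of 9 tested fibroblast markers, 6 rose, with sums of 6980 and 7139 without EGF against 2263 and 2633 in controls. None of the 11 listed was at 0, but COL1A2 and PDGFRA did not pass the filter (means of 6.2 and 7.8). Of 2 tested endothelial markers 1, KDR, rose, with sums of 593 and 782 without EGF against 286 and 314 in controls and CDH5 at 0 in every library. Of the haematopoietic markers, CD3E and HBB were at 0 in every library. All 13 mitochondrially encoded messages had positive differences, with a median of 0.16, and limma called 0 of them (3 had an unadjusted p below 0.05). The part of these shifts in the glycolytic values was not tested.

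The libraries labelled control at passage 6 and passage 4 have the same siRNA and medium by their labels. BRCA2 was higher at passage 6, by 1.05 (limma adjusted p = 0.0235), and the cause was not tested. The doubt about the labels of the passage 4 libraries, described above, applies to this comparison too. The comparison shares the passage 6 controls with the one above. The enzymes did not share a direction, as 9 of 17 had positive and 8 negative differences, with a median of 0.07 against -0.03 over all genes. Of the 37 genes, 9 were called, beside 20.1% of all tested genes. Of them 8 fell and 1 rose, beside 12.4% and 7.71% of all tested genes. Both hexokinases were among these. HK1 fell by 0.62 ± 0.10, with 14.06 and 14.04 at passage 6 against 14.67 at passage 4 (limma adjusted p = 0.0264), and HK2 fell by 0.52 ± 0.09, with 12.29 and 12.25 at passage 6 against 12.79 at passage 4 (adjusted p = 0.0288). PFKM fell by 0.45 (adjusted p = 0.0417).

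The largest differences with passage were in hypoxia-induced genes outside the pathway. MXI1 had 9.23 and 9.03 at passage 6 against 10.69 at passage 4, and fell by 1.56 ± 0.17 (limma adjusted p = 0.0231). NDRG1 had 14.13 and 14.00 at passage 6 against 15.58 at passage 4, and fell by 1.52 ± 0.13 (adjusted p = 0.0231). ADM had 10.05 and 10.02 at passage 6 against 11.24 at passage 4, and fell by 1.21 ± 0.12 (adjusted p = 0.0231). BNIP3L and KDM3A fell by 0.46 and 0.54. CA9 was the member that rose, with 7.59 and 7.68 at passage 6 against 6.89 at passage 4, by 0.75 ± 0.17 (adjusted p = 0.0438).

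The enzymes with the largest positive differences were PGK1 and LDHA, which did not pass. PGK1 had 13.51 in both passage 6 controls against 12.90 at passage 4 (difference 0.61, adjusted p = 0.0876). LDHA had 16.29 and 16.27 at passage 6 against 15.74 at passage 4 (difference 0.54, adjusted p = 0.183). Of 14 genes of the oxygen-sensing machinery, 3 fell, among them EPAS1, the HIF-2α subunit, by 1.14 and ARNT, the partner of both HIF subunits, by 0.68. Of 31 other hypoxia targets, 7 fell and 1 rose. CITED2 fell by 1.72 and STC1 rose by 0.88 (adjusted p = 0.0231 and 0.0497). Of 16 genes of pyruvate and lactate fate, 1 rose, the lactate transporter SLC16A1 (0.73, adjusted p = 0.0231), and 1 fell. The shares called were 21.4% of the oxygen-sensing machinery, 25.8% of the other hypoxia targets and 12.5% of pyruvate and lactate fate. Of all tested genes, 20.1% were called. The passage 4 control is 1 library whose spread is taken from the other groups, and limma called 0 of the 37 genes with passage 6 controls A and B averaged (7 had an unadjusted p below 0.05), without A (8), without B (5) or with no filter (14). With a library left out, the enzyme median ran from 0.06 to 0.08. Set against the other passage 4 library, labelled BRCA2 siRNA, a comparison added after the values were seen, the passage 6 controls gave 0 calls in limma over all genes (2700 had an unadjusted p below 0.05), an enzyme median of -0.12, and differences of -0.96 for MXI1, -0.61 for NDRG1, -0.48 for ADM, -0.27 for HK1, 0.071 for HK2 and -0.17 for CA9.

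The BRCA2 siRNA libraries without EGF at passage 6 were also set against the 1 library labelled BRCA2 siRNA with EGF at passage 4, whose BRCA2 value goes against its label. Medium and passage differ together in this comparison. It shares its libraries without EGF with the comparison at passage 6, so both sets of values are given side by side. All 17 enzymes had negative differences, with a median of -0.63, against -0.51 in the comparison with passage 6 controls. Of the 37 genes, 14 were called, beside 16.3% of all tested genes. Of them 12 fell and 2 rose, beside 8.89% and 7.41% of all tested genes. Among enzymes, 7 fell, namely HK1, HK2, PFKP, ALDOC, TPI1, GAPDH and ENO2. In the same comparison all 13 mitochondrially encoded messages had positive differences, with a median of 0.62, and 9 rose. Of 10 epithelial markers 5 rose and 1 fell, and of 9 fibroblast markers 5 rose and 1 fell. Their part in the glycolytic values was not tested.

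ENO2 had 8.97 and 8.29 without EGF against 10.07 in the library with EGF, and fell by 1.44 ± 0.29 (limma adjusted p = 0.0402). ALDOC had 8.74 and 8.44 without EGF against 9.61 with EGF, and fell by 1.02 ± 0.15 (adjusted p = 0.0264). LDHA had 15.92 and 15.30 without EGF against 16.48 with EGF, and its difference of -0.87 ± 0.26 did not pass (adjusted p = 0.0809). The other 5 enzymes that fell did so by 0.45 to 0.73.

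BNIP3 had 10.93 and 10.58 without EGF against 12.04 with EGF, and fell by 1.28 ± 0.16 (limma adjusted p = 0.0229). BNIP3L fell by 0.86 ± 0.10 (adjusted p = 0.0184), with 11.42 and 11.32 without EGF against 12.24 with EGF. Both mitophagy receptors thus fell, and neither had passed at passage 6. EGLN1 fell by 0.56, NDRG1 by 0.62 and PDK1 by 0.55 (adjusted p = 0.0479, 0.043 and 0.0329). SLC2A1 rose by 0.69 ± 0.15, with 12.47 and 12.14 without EGF against 11.62 with EGF (adjusted p = 0.0482), and P4HA2 rose by 0.46 ± 0.09 (adjusted p = 0.0348). EGLN3 had 8.49 and 7.85 without EGF against 9.10 with EGF and did not pass (difference -0.93, adjusted p = 0.0838). Of 31 other hypoxia targets, 7 fell and 2 rose (29% called), beside 16.3% called of all tested genes. STC1 fell by 3.17, SLC2A3 by 1.38 and BHLHE40 by 1.34 (adjusted p = 0.0126, 0.0141 and 0.0166). In limma 0 of 37 members passed with passage 6 controls A and B averaged or with either left out (25 had an unadjusted p below 0.05 in each), with no filter (27) or without passage in the groups (18). Without library A or B of the pair lacking EGF, the enzyme median was -0.82 and -0.47. Set against the library labelled passage 4 control instead, also added after the values were seen, 16 of 17 enzymes had negative differences, with a median of -0.49. Of the 37 members 13 were called, 12 lower and 1 higher, beside 4537 of all 14763 tested genes. HK1, HK2, PFKP, GAPDH, NDRG1, BNIP3, BNIP3L and P4HA2 kept their calls and direction, while ALDOC, TPI1, ENO2, PDK1, EGLN1 and SLC2A1 lost the call, the last with a difference of -0.051.

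At passage 4 the library labelled BRCA2 siRNA and the control, both with EGF, were 1 library each, so there is no replicate check, and each also serves in a comparison above. Of the 37 genes, only EGLN3 differed by at least 1 on the log2 scale, with 9.10 in the library labelled BRCA2 siRNA and 7.83 in the control, where 1.17% of tested genes were higher and 1.04% lower by that much. Of the enzymes, 13 were higher and 4 lower in the library labelled BRCA2 siRNA, with a median difference of 0.18, against -0.04 over all genes. PGK1 stood at 13.70 in the library labelled BRCA2 siRNA against 12.90 in the control, a difference of 0.81. LDHA stood at 16.48 in that library against 15.74 in the control, and PGAM1 at 13.64 against 12.99 in the control. The hexokinases were lower in the library labelled BRCA2 siRNA, HK2 at 12.20 against 12.79 in the control and HK1 at 14.32 against 14.67 in the control. Among the others, CA9 was at 7.80 in the library labelled BRCA2 siRNA against 6.89 in the control, and PFKFB4 at 8.81 against 7.93 in the control. NDRG1 was at 14.68 in that library against 15.58 in the control, and SLC2A1 at 11.62 against 12.36 in the control. If the 2 labels were exchanged, each of these differences would change sign.

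The genes called or named at passage 6 can also be placed at passage 4, where they were mixed. PFKP was at 11.59 in the library labelled BRCA2 siRNA and 11.89 in the control, and ADM at 10.52 in that library and 11.24 in the control. PDK1 was at 10.05 in the library labelled BRCA2 siRNA and 9.70 in the control, BNIP3 at 12.04 in that library and 11.66 in the control, and MXI1 at 10.09 in it and 10.69 in the control. The minor isoforms were higher in the library labelled BRCA2 siRNA, ENO2 at 10.07 against 9.42 in the control and ALDOC at 9.61 against 9.08 in the control. P4HA2, LDHB, HIF1A and VEGFA were closer together. P4HA2 was at 12.19 in the library labelled BRCA2 siRNA and 12.22 in the control, LDHB at 14.14 in it and 14.12 in the control, HIF1A at 14.35 in it and 14.32 in the control, and VEGFA at 12.23 in it and 12.39 in the control.

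Seen across all 6 libraries, the enzymes fall into sets with different orders. LDHA, PGK1 and PGAM1 were highest in the passage 4 library labelled BRCA2 siRNA and low in its control, while HK1, HK2, PFKM and PFKP were highest in the passage 4 control. All of them were lowest in the libraries without EGF, except that the passage 4 control lay between the pair without EGF for LDHA, PGK1 and PGAM1. Ratios between related genes differed between libraries too. The log2 ratio of LDHA to LDHB was between 2.01 and 2.35 in 5 libraries and 1.63 in the passage 4 control. The ratio of ENO2 to ENO1 was -7.36 and -7.78 without EGF, -6.61 in the passage 4 library labelled BRCA2 siRNA, -7.21 and -7.30 in passage 6 controls and -7.07 in the passage 4 control.

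P4HA2 to P4HA1 was -0.28 and -0.26 without EGF, against -0.81 and -0.85 in passage 6 controls, and between them, at passage 4, lay the library labelled BRCA2 siRNA at -0.51 and the control at -0.47. BNIP3 to BNIP3L was -0.49 and -0.74 without EGF, against -0.07 and -0.11 in passage 6 controls. PFKP to PFKM was 0.12 and 0.14 without EGF against 0.41 in both passage 6 controls. These ratios were not tested. In each family one gene dominated in every library, with length taken into account. ALDOA made up 94.6% to 96.1% of the aldolases A and C, ENO1 99.2% to 99.7% of the enolases 1 and 2, and LDHA 62.2% to 73.1% of both lactate dehydrogenase subunits. The exception was phosphofructokinase, in which PFKL had 34.9% to 45.7%, PFKP 31.4% to 39.2% and PFKM 21.1% to 25.9%.

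**Figure D4:**
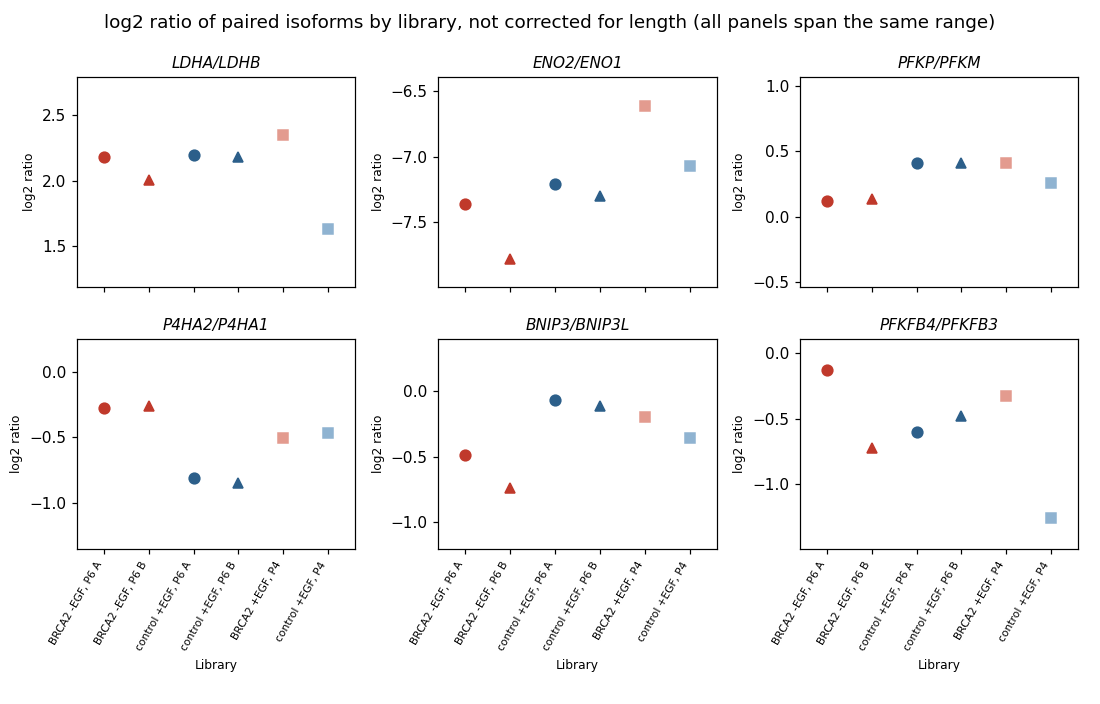
Log2 ratio of 6 pairs of related genes (y axis, not corrected for length) in each library (x axis). The ratio of P4HA2 to P4HA1 is higher, and those of PFKP to PFKM and BNIP3 to BNIP3L are lower, in both libraries without EGF than in both passage 6 controls, and the ratio of LDHA to LDHB is lowest in the passage 4 control.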

How the data were processed

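Polyadenylated RNA of 6 libraries was purified with columns and beads and made into libraries with ScriptSeq v2, per the labels' protocols. Per the submitters' processing notes, TopHat2 2.0.11, DESeq2 (no version) and hg19 were used. For the read counter, gene annotation and transformation nothing is stated there. The authors deposited 1 table of normalised log2 values with 57820 Ensembl rows. The values run from -1.98 to 19.93, with 25986 rows at 0 in all libraries and 0 rows at 0 in some only. If a shrinking transformation was used, differences of low genes are understated. Neither sequencing depth nor its precision can be had from such values, and no count model was used.

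Symbols were looked up by Ensembl identifier. Genes averaging at least 10 after 2 was raised to each value (14763) were fitted with limma 3.58.1 in R 4.3.3 on the log2 values, with 1 level per group over all 6 libraries, 2 residual degrees of freedom, a trended, robust prior. Tests were two-sided with Benjamini-Hochberg adjustment over all tested genes, and an adjusted p below 0.05 counted as called. With 1 library a side, an absolute log2 difference of at least 1 counted. A group of 1 library takes its spread from the others. SE is that of limma, and folds are 2 raised to the difference. The procedure was tested on simulated data with 1 spread per gene shared by all libraries. That test does not cover the unequal spread of the passage 6 pairs, whose A minus B differences had SDs of 0.308 without EGF and 0.119 in controls. Length correction used the union of exons of GENCODE v29 basic genes, of another build than the data.

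The members and the gene lists were chosen with earlier results of these data known. Values by library (for PDK1 in passage 6 controls, 1 value with the mean and SD) are given for called members at passage 6, for the 4 enzymes and 4 others with the largest differences there, for 3 and 3 in each other comparison, and for HIF1A, LDHA, LDHB, SLC2A1, HK2, PDK1, BNIP3, VEGFA and CA9. Other values were chosen after they were seen. Alternatives were other groupings, filters, scalings, variance priors, averaged controls, a replicate block, leaving out each library and, added after the values were seen, exchanging the passage 4 libraries. The summed level of the haematopoietic marker list is not reported here.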

Additional observations from a re-analysis of the deposited data

How the results depend on the processing

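In the passage 6 comparison, all 17 enzymes kept a negative difference whichever library was left out, with a median between -0.61 and -0.36. Over those fits the genes called ran from 42 to 8964, against 950, the members called from 0 to 32, and the median of the other members from -0.13 to -0.071. Without passage in the groups, 146 genes and 0 members were called in limma (14 members at an unadjusted p below 0.05), and the median of the others was -0.21. With no filter on low values it was 76 genes and 0 members (20 unadjusted), and with controls A and B averaged 46 genes and 0 members (8 unadjusted). The called members passed in 10 (HK2, PDK1 and ADM), 9 (P4HA2) and 7 (PFKP) of 15 alternatives. These counts do not measure robustness, as some alternatives could hardly change a call. The passage 4 libraries add nothing to the spread here. With passage 6 libraries only, 959 genes were called, and without the library labelled control or BRCA2 siRNA at passage 4, 951 and 948. Without library A or B of the pair lacking EGF, the spread came from the close controls alone.

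The shared letters A and B do not establish pairs, and the A minus B differences of the passage 6 groups correlated at r = -0.172. With the letter as a replicate block, 9 members and 1219 genes were called. PFKP and P4HA2 lost their calls there, HK2, PDK1 and ADM kept theirs, and ALDOC, PGK1, PGAM1, ENO2, LDHA and BNIP3 were added. Quantile normalization put the median of the others at -0.071. PFKP lost its call with quantile normalization and also with a prior that was neither trended nor robust.

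Members without a call changed sign under some settings. Without passage, HIF1A was at -0.030, EGLN3 at 0.11, P4HA1 at 0.023 and MXI1 at -0.14. With library medians centred, EGLN3 was at 0.017, NDRG1 at 0.015 and KDM3A at 0.0030, and with quantile normalization NDRG1 was at 0.041 and KDM3A at 0.042. With 1 library left out, HIF1A ran from -0.12 to 0.15, EGLN3 from -0.33 to 0.31, VEGFA from -0.68 to 0.12, NDRG1 from -0.12 to 0.10, PFKFB4 from -0.88 to 0.074, DDIT4 from -0.13 to 0.74 and KDM3A from -0.064 to 0.019. The median over all genes, close to 0 in each comparison, was 0.0053 here with library medians centred.

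For passage 6 against passage 4 in controls, 2963 genes became 0 with no filter or with A and B averaged (7341 and 2770 unadjusted), and 0 to 9849 with a library left out. The median of the others was 0.015 with library medians centred and 0.028 with quantile normalization. LDHB was at 0.050 and 0.14 under these, and HIF1A was at 0.043 with quantile normalization. The median over all genes was 0.0053 with no filter, 0.043 centred and 0.0041 with quantile normalization. For BRCA2 siRNA without EGF against the passage 4 library labelled BRCA2 siRNA, 2406 genes became 30 without passage, 0 with no filter (7066 unadjusted), 203 with A and B averaged, and 203 to 9215 with a library left out, where the enzyme median ran from -0.82 to -0.47. The median of the others was -0.55 at a mean of at least 50 and -0.32 with library medians centred. VEGFA ran from -0.34 to 0.47 with a library left out, and the median over all genes was 0.0087 with no filter and 0.033 centred. At passage 4, the median of the others was 0.057 with library medians centred and 0.10 (0.0985) with quantile normalization, that of the enzymes 0.44 with quantile normalization, and that of all genes 0.0074 centred.

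Exchanging the passage 4 libraries, an alternative chosen after seeing the data, gave 0 genes called in limma for the passage 6 controls, with a median of -0.12 for the enzymes and -0.16 for the others. HK2 (0.071), PGK1 (-0.20), LDHA (-0.20), SLC2A1 (0.32), PDK1 (-0.017) and CA9 (-0.17) changed sign. For the libraries without EGF it gave 4537 genes called and a median of the others of -0.11, and SLC2A1 (-0.051), EGLN3 (0.33), VEGFA (-0.10) and CA9 (0.20) changed sign. The causes were not tested.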
